A study of Mus musculus with 16 samples.

Results

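The genes followed here are 8 core genes of the PI3K, Akt and mTOR pathway, chosen by name as the entries of the array table whose symbol was Pik3cd, Pik3r1, Inpp5d, Pdpk1, Akt1, Akt2, Tsc1 or Tsc2, out of 18138 genes in all. All samples came from D10 cells, a line derived from a mouse Th2 (type 2 helper T cell) clone and grown with interleukin-2. Control cells and cells incubated for 1 h with 10 µM Akti1/2, an allosteric inhibitor of the kinases Akt1 and Akt2, were each stimulated through CD3 and CD28 with biotinylated antibodies and streptavidin for 0, 2, 6 or 12 h, which gave 8 groups of 2 Illumina mouse RefSeq arrays. The 0 h cells of the inhibitor arm had received Akti1/2 but no stimulus. The study's methods describe the controls as untreated and its results name a solvent. Neither says whether the duplicates were separate cultures, so the p-values measure the spread between these arrays, which may be technical.

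PI3K is a lipid kinase that is recruited to activated receptors and makes a membrane phosphoinositide, on which the kinases PDK1 and Akt meet, so that PDK1 can phosphorylate Akt. Active Akt phosphorylates the TSC complex and thereby releases Rheb, the GTPase that switches on the kinase complex mTORC1, which drives protein synthesis and growth. In T cells the antigen receptor and CD28 both feed this route, lipid phosphatases such as SHIP1 limit it, and the FOXO transcription factors are held in the cytoplasm while Akt is active.

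Values are intensities of 1 entry per gene and array. The mean intensity of an array was 393.8 to 544.0, the median 119.4 to 148.6, and 6288 to 6907 genes per array lay above background, which here means brighter than all but 1% of the negative control beads. The Akti1/2 2 h arrays had the lowest means (414.2 and 393.8) and the most genes above background (6907 and 6796). Array brightness thus differed with the group before normalization. Levels are given as log2 normalized intensities, and a difference of 1 on this scale is a doubling. A gene entered the tests if 2 or more of the 16 arrays measured it above background (7395 genes passed), and it was called at an adjusted p under 0.05 (limma, Benjamini-Hochberg over all 7395). Entries of different genes are not set against each other, since the brightness of a bead also depends on its sequence.

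The label of the cells was checked against marker genes. Of 6 T cell markers, 5 were above background on all 16 arrays, among them Cd3g, a chain of the CD3 complex (intensity 5712 to 12020). Cd4 was dim and above background on 13 arrays. All 5 Th2 markers were above background on every array, among them Gata3, the transcription factor that defines Th2 cells (4230 to 7899). The markers of CD8 T cells (Cd8a, Cd8b1), Th1 cells (Tbx21, Ifng), myeloid cells (Lyz2, Cd14, Csf1r, Itgam, Adgre1), NK cells (Ncr1, Klrb1c) and fibroblasts (Col1a1, Col1a2, Col3a1) were not above background on any array, and of the B cell markers only Ms4a1 passed, on 1 array. In bulk RNA such as this, fewer cells that express a gene and less of its RNA per cell cannot be told apart.

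The inhibitor's own targets were not measurable on this array. Akt1 (chromosome 12 in the array annotation) gave intensities of 114.8 to 165.2 and Akt2 of 118.7 to 149.2, which was 0.811 to 0.938 and 0.812 to 0.914 times the detection limit of the same array. Neither entry was well above background in any of the 8 groups, so no level, order or difference is given for either, and nothing about the amount of Akt RNA in these cells follows from it. The other 6 genes were tested, 5 of them above background on all 16 arrays and Tsc1 on 14.

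**Figure D1:**
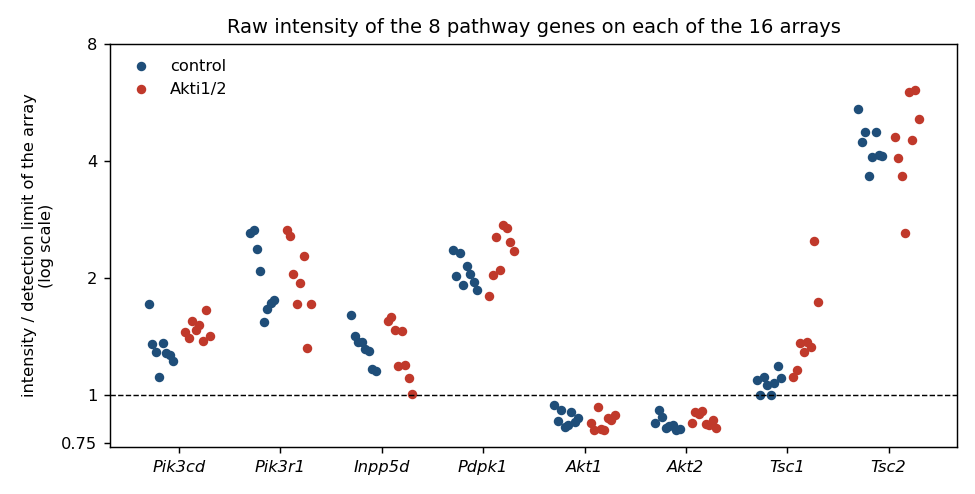
Raw intensity of each of the 8 genes divided by the detection limit of the same array, on a log axis, with 1 point per array (blue control, red Akti1/2, each ordered from left to right by time) and the limit as a dashed line. All points of Akt1 and Akt2 lie below the line, at 0.811 to 0.938 and 0.812 to 0.914, and 2 control arrays of Tsc1 are not above it.

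Tsc1 encodes hamartin, the subunit that stabilises the TSC complex, which turns Rheb off (chromosome 2). It was the gene of the 6 tested with the widest range, 1.90 on the log2 scale between its highest and lowest group, and it was higher with Akti1/2 than in control cells at 2, 6 and 12 h. In control cells its log2 intensity was 5.91 and 5.70 at 0 h, 5.99 and 6.07 at 2 h, 5.63 and 6.07 at 6 h, then 6.41 and 6.15 at 12 h. With Akti1/2 it was 6.07 and 6.34 at 0 h, 6.61 and 6.71 at 2 h, 6.65 and 6.59 at 6 h, then 7.98 and 7.43 at 12 h. The arrays of both arms did not overlap at any time, and the 12 h arrays with Akti1/2 stood above all others. In 2 control arrays, 0 h replicate 2 and 6 h replicate 1, Tsc1 was not above background.

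Tsc1 was 1.43 ± 0.19 (SE, 2 arrays a group) higher with Akti1/2 at 12 h, a 2.69-fold difference (limma adjusted p = 6.34e-05). At 6 h the difference was 0.77 ± 0.19 (limma adjusted p = 0.00678) and at 2 h 0.63 ± 0.19 (limma adjusted p = 0.0274). Before stimulation it was 0.40 with an interval of -0.01 to 0.81 and was not called (limma adjusted p = 0.961). The differences at 2 and 6 h exceeded that at 0 h by 0.23 and 0.37. Neither excess was called (limma adjusted p = 0.638 and 0.362), so these differences were not told apart from that before stimulation. Within the inhibitor arm Tsc1 rose by 1.50 ± 0.19 from 0 to 12 h (limma adjusted p = 4.96e-05), while in control cells the change of 0.47 did not pass (limma adjusted p = 0.0835). The difference between those changes, the interaction, was 1.03 ± 0.27 (limma adjusted p = 0.0113). Its size differed between the chips, each of which held 1 array of every group: 1.68 on one and 0.38 on the other. Without background correction the values were smaller but still called: 0.71 between the arms at 12 h, 0.28 at 6 h, 0.74 for the rise with Akti1/2 and 0.58 for the interaction (limma adjusted p up to 0.0285). The 6 h call was lost without control 6 h replicate 1 (0.56, limma adjusted p = 0.0748). The 2 h call was lost without any 1 of the 4 arrays compared (0.58 to 0.69, limma adjusted p up to 0.125), without background correction (0.24, limma adjusted p = 0.0644) and with no filter on dim genes (limma adjusted p = 0.0534).

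Tsc2 encodes tuberin, the GTPase-activating subunit of the same complex and a direct Akt substrate (chromosome 17). Its log2 intensity in control cells stayed between 9.07 and 9.43 over the 8 arrays. With Akti1/2 it was 9.22 and 9.28 at 0 h, 8.86 and 8.64 at 2 h, 9.69 and 9.22 at 6 h, then 9.60 and 9.57 at 12 h. The 2 h arrays were the lowest of all 16, and the 12 h arrays lay above every control array. From 0 to 2 h with Akti1/2, Tsc2 fell by 0.50 on the log2 scale (SE 0.15, limma adjusted p = 0.0223). At 2 h it was lower with Akti1/2 than without by a difference of -0.44 that missed the threshold (limma adjusted p = 0.0514, called in 7 of 23 other analyses), and at 12 h it was higher by 0.45 ± 0.15 (limma adjusted p = 0.0292). The 12 h call was lost without any 1 of the 4 arrays compared (0.38 to 0.51, limma adjusted p up to 0.147) and with no filter (limma adjusted p = 0.0554), and the 2 h fall without Akti1/2 0 h replicate 1 or 2 or Akti1/2 2 h replicate 2 (-0.54 to -0.39, limma adjusted p up to 0.144). The interaction at 12 h was 0.59 and not called (limma adjusted p = 0.057, called in 6 of 23 other analyses).

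**Figure D2:**
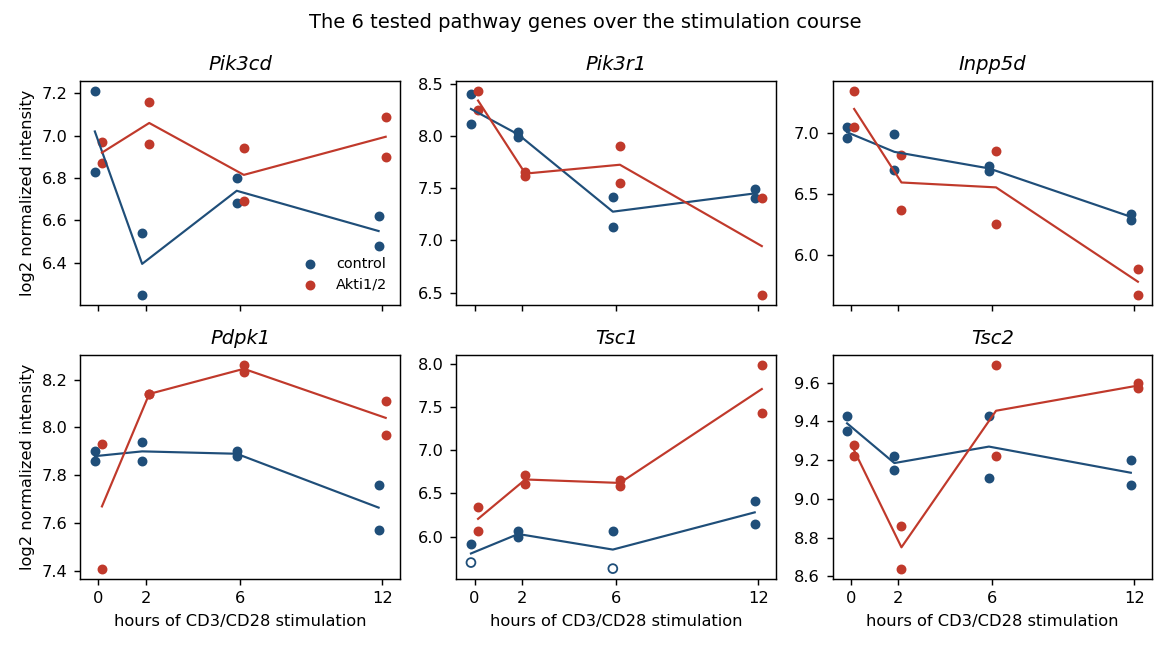
Log2 normalized intensity of the 6 tested genes against hours of stimulation, 1 point per array, offset slightly by arm, with lines through the means of 2 arrays (blue control, red Akti1/2) and open points for arrays on which the gene was not above background; each panel has its own axis. Tsc1 with Akti1/2 reached 7.98 and 7.43 at 12 h, Inpp5d fell to 5.89 and 5.68, close to background, and Tsc2 dipped to 8.86 and 8.64 at 2 h.

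Pik3r1 encodes the main regulatory subunit of class I PI3K, which stabilises the catalytic subunit and brings it to phosphorylated receptors (chromosome 13). Its level fell in both arms during stimulation, and no difference between the arms was called in the fit without a block. In control cells it was 8.12 and 8.40 at 0 h, 7.99 and 8.04 at 2 h, 7.13 and 7.42 at 6 h, then 7.49 and 7.41 at 12 h. With Akti1/2 it was 8.25 and 8.43, then 7.66 and 7.62, 7.55 and 7.90, and 6.48 and 7.41. All stimulated arrays lay below the 0 h arrays of their own arm, and the lowest value of the 16 was the 12 h array with Akti1/2 on chip 1.

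From 0 h, Pik3r1 fell by 0.98 in control cells at 6 h (SE 0.24, limma adjusted p = 0.00864) and by 0.81 at 12 h (limma adjusted p = 0.0224). With Akti1/2 it fell by 0.70 at 2 h (limma adjusted p = 0.0333) and by 1.39 at 12 h (SE 0.24, limma adjusted p = 0.000474), a fold of 0.38, and the 6 h value of -0.62 missed the threshold (limma adjusted p = 0.0631), but was called in 6 of 23 other analyses, among them the fit with the chip as a block (limma adjusted p = 0.0264). Without background correction the called falls were -0.61 and -0.52 in control cells at 6 and 12 h and -0.46 and -0.82 with Akti1/2 at 2 and 12 h, all still called (limma adjusted p up to 0.00763). Between the arms the differences were 0.08, -0.38, 0.44 and -0.51 at 0, 2, 6 and 12 h, and the 12 h interval ran from -1.02 to 0.01 (limma adjusted p = 0.0943). That 12 h difference was -0.93 on chip 1 and -0.08 on chip 2, and it was called with the chip as a block (limma adjusted p = 0.0433). Over the 23 other analyses it ran from -0.97, without Akti1/2 12 h replicate 2, to -0.04. The control 6 h call was lost without control 0 h replicate 2 or 6 h replicate 1 (-0.84 each, limma adjusted p up to 0.0742), the control 12 h call without control 0 h replicate 2 or 12 h replicate 1 or 2 (-0.85 to -0.67, limma adjusted p up to 0.147), and the 2 h call with Akti1/2 without any 1 of the 4 arrays compared (-0.79 to -0.61, limma adjusted p up to 0.157) or with no filter (limma adjusted p = 0.0686).

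Inpp5d encodes SHIP1, the haematopoietic lipid phosphatase that removes a phosphate from the PI3K product (chromosome 1). It fell over the course in both arms and furthest with Akti1/2 at 12 h. In control cells its log2 intensity was 7.05 and 6.96 at 0 h, 6.70 and 6.99 at 2 h, 6.69 and 6.73 at 6 h, then 6.34 and 6.29 at 12 h. With Akti1/2 it was 7.05 and 7.34, 6.82 and 6.37, 6.85 and 6.26, and 5.89 and 5.68. Both 12 h arrays with Akti1/2 were below the other 14, while the arms overlapped at 2 and 6 h. Those 12 h arrays were close to background, at raw intensities of 186.8 and 160.7 against detection limits of 169.6 and 160. The size of the fall to 12 h therefore depends on the background correction.

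With Akti1/2, Inpp5d fell by 0.61 at 2 h, 0.64 at 6 h and 1.41 at 12 h on the log2 scale (SE 0.20 each, limma adjusted p = 0.0293, 0.0249 and 0.000109), and in control cells by 0.69 at 12 h (limma adjusted p = 0.0204). At 12 h it was lower with Akti1/2 than without, by a difference of -0.53 ± 0.20 (limma adjusted p = 0.0423), a call that 12 of 23 other analyses kept, and that was lost without background correction (-0.18, limma adjusted p = 0.124), with arrays scaled to the same mean (-0.43, limma adjusted p = 0.0936), with no filter (limma adjusted p = 0.0879) and without any 1 of the 4 arrays compared, control 0 h replicate 1 or 2, or control 6 h replicate 1 or 2 (-0.63 to -0.42, limma adjusted p up to 0.201). Without background correction the falls with Akti1/2 were -0.29, -0.30 and -0.58 and the control fall -0.30, all called (limma adjusted p up to 0.0224). The control fall was lost without control 0 h replicate 1 or 2 or control 12 h replicate 1 or 2 (-0.73 to -0.64, limma adjusted p up to 0.103). The 2 and 6 h falls with Akti1/2 were lost without Akti1/2 0 h replicate 2 (-0.46 and -0.50) and without replicate 2 of their own group (-0.38 and -0.35, limma adjusted p up to 0.233). They were also lost with arrays scaled to the same mean (-0.51 and -0.55, limma adjusted p = 0.061 and 0.0532), with no filter (limma adjusted p = 0.0583 and 0.051) and in a fit of only the groups compared (limma adjusted p = 0.0665 and 0.0996). The interaction at 12 h, -0.72, was not called (limma adjusted p = 0.0664, called in 5 of 23 other analyses).

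Pik3cd encodes the catalytic subunit of class I PI3K that leukocytes rely on (chromosome 4). Its lowest group mean was that of control cells at 2 h and its highest that of Akti1/2-treated cells at the same time. In control cells it was 7.21 and 6.83 at 0 h, 6.54 and 6.25 at 2 h, 6.80 and 6.68 at 6 h, then 6.62 and 6.48 at 12 h. With Akti1/2 all 8 arrays lay between 6.69 and 7.16, and no change from 0 h was called in that arm. Control cells fell by 0.62 at 2 h (SE 0.16, limma adjusted p = 0.0261) and by 0.47 at 12 h (limma adjusted p = 0.0408). Cells with Akti1/2 were higher than control cells by 0.67 ± 0.16 at 2 h (limma adjusted p = 0.00821) and by 0.44 ± 0.16 at 12 h (limma adjusted p = 0.0323), with 0.07 at 6 h. The interaction at 2 h was 0.76 ± 0.22 and missed the threshold (limma adjusted p = 0.0512), but was called in 7 of 23 other analyses, among them the fit with the chip as a block (limma adjusted p = 0.0487). Without background correction the differences between the arms at 2 and 12 h were 0.30 and 0.20 and the control fall at 2 h -0.28, all called (limma adjusted p up to 0.0488). The difference at 2 h was lost as a call without control 2 h replicate 2 or Akti1/2 2 h replicate 2 (0.52 and 0.57, limma adjusted p up to 0.0693), and that at 12 h without control 12 h replicate 1 or 2 or Akti1/2 12 h replicate 1 (0.35 to 0.52, limma adjusted p up to 0.181) or with no filter (limma adjusted p = 0.0617). The control fall at 2 h was lost without control 0 h replicate 1 or 2 h replicate 2 (-0.43 and -0.48, limma adjusted p up to 0.219) and in a fit of only these groups (limma adjusted p = 0.0996). The one at 12 h was lost without control 0 h replicate 1, control 12 h replicate 1 or 2, control 6 h replicate 2 or either Akti1/2 0 h array (-0.54 to -0.27, limma adjusted p up to 0.317), and also without background correction (-0.22, limma adjusted p = 0.0542), with no filter (limma adjusted p = 0.0756) and in a fit of only these groups (limma adjusted p = 0.0682).

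Pdpk1 encodes PDK1, the kinase that phosphorylates the activation loop of Akt. In the array annotation the entries of Pdpk1 and Akt2 have no gene identifier, description or chromosome, so their identity rests on the symbol. In control cells the 8 arrays of Pdpk1 lay between 7.57 and 7.94, and no change from 0 h was called. With Akti1/2 it was 7.41 and 7.93 at 0 h, 8.14 on both arrays at 2 h, 8.26 and 8.23 at 6 h, then 7.97 and 8.11 at 12 h. The stimulated arrays with Akti1/2 lay above every control array, while the 2 unstimulated ones differed by more than any control arrays did. Within the inhibitor arm Pdpk1 rose by 0.47 ± 0.14 at 2 h (limma adjusted p = 0.0216) and 0.58 ± 0.14 at 6 h (limma adjusted p = 0.00867), but both rises rest on the low array, Akti1/2 0 h replicate 1: without it they were 0.22 and 0.32 and not called (limma adjusted p = 0.236 and 0.0989). The 2 h rise was also lost without Akti1/2 2 h replicate 1 or 2 (0.47 and 0.48, limma adjusted p up to 0.0794), and both rises in a fit of only the groups compared (limma adjusted p = 0.113 and 0.091). At 12 h Pdpk1 was 0.38 ± 0.14 higher with Akti1/2 than without (limma adjusted p = 0.0473) and the interaction was 0.59 ± 0.20 (limma adjusted p = 0.0433). Each of these calls was kept in 7 of 23 other analyses and was lost on leaving out most single arrays: leaving out any of the 4 arrays at 12 h gave 0.28 to 0.47 for the former (limma adjusted p up to 0.239), while leaving out Akti1/2 0 h replicate 1 gave 0.33 for the latter (limma adjusted p = 0.172). Without background correction the rises were 0.30 and 0.37, the 12 h difference 0.24 and the interaction 0.37, all called (limma adjusted p up to 0.0335).

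**Figure D3:**
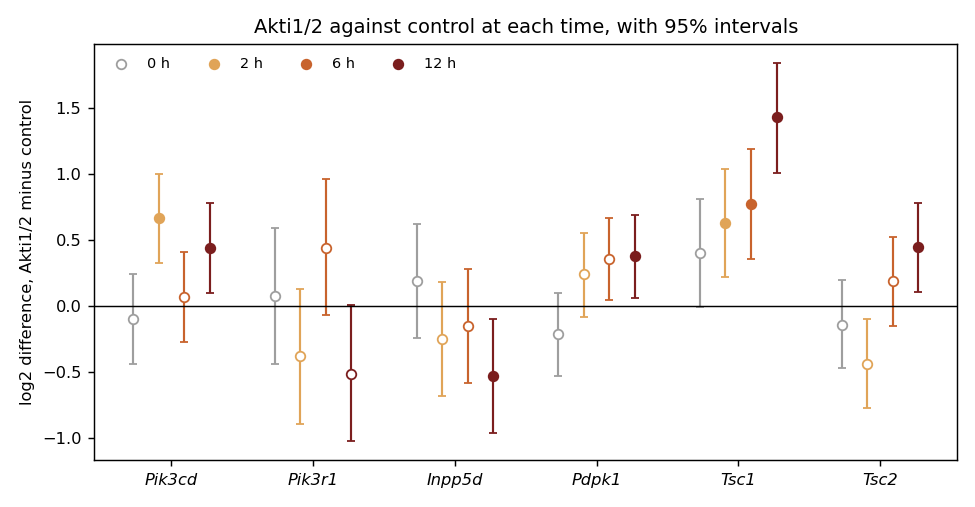
Log2 difference between Akti1/2-treated and control cells for the 6 tested genes at 0, 2, 6 and 12 h, with 95% intervals from the limma fit of 2 arrays a group; filled points were called and open points were not. Tsc1 rises from 0.40 at 0 h to 1.43 at 12 h, no gene was called at 0 h, and Pik3r1 was called at no time.

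The counts of called genes among the 6 are set beside those of all tested genes. In control cells 1 of them was called at 2 h and 1 at 6 h, both lower, and 3 at 12 h, all lower. Of all tested genes 5.86%, 15.4% and 15.1% were called lower there, and 10.3%, 27.5% and 27.8% in either direction. With Akti1/2, 1 was higher and 3 lower at 2 h, when 17.8% of all tested genes were called higher and 20.9% lower (38.6% together). At 6 h 1 was higher and 1 lower (15.4% and 17.9%, 33.3% together), and at 12 h 1 was higher and 2 lower (21.1% and 23.4%, 44.5% together). Leaving out 1 array brought the control counts down to 0 at 2 h (control 0 h replicate 1 or 2 h replicate 2), at 6 h (control 0 h replicate 2 or 6 h replicate 1) and at 12 h (control 12 h replicate 1 or 2), and the 2 h count with Akti1/2 to 0 without Akti1/2 2 h replicate 2. The changes from 0 h within an arm share the 0 h arrays of that arm.

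Between the arms, 0 of the 6 genes were called before stimulation (limma, 0.0541% of all tested genes, of which 0.0406% higher and 0.0135% lower; 0 of the 6 at an unadjusted p under 0.05). At 2 h 2 were called, Pik3cd and Tsc1, both higher with Akti1/2 (13.6% of all tested genes were called higher and 28.4% in either direction). At 6 h it was 1, Tsc1, also higher (18.8% higher, 37.5% in either direction). At 12 h 5 were called, all except Pik3r1 (24.2% higher, 24.8% lower, 49% together). Of those 5, Inpp5d was lower and the others higher. The median difference of the 6 genes at 12 h was 0.41, against -0.02 for all tested genes. Leaving out control 12 h replicate 1 or 2 or Akti1/2 12 h replicate 1 left 1 call at 12 h, leaving out replicate 2 of either arm at 2 h left 0 there, and leaving out control 6 h replicate 1 left 0 at 6 h. The interaction was called for 0 of the 6 at 2 h and 6 h (limma, 8.41% and 19.5% of all tested genes; 2 and 1 of the 6 at an unadjusted p under 0.05) and for 2 at 12 h, Tsc1 and Pdpk1 (32.5%). Of the 24 differences called in these 13 comparisons, 5 remained called in every other analysis that tested them (22 for Tsc1, which the filter to genes above background on all 16 arrays removes, and 23 for the others): the 12 h falls of Pik3r1 and Inpp5d with Akti1/2, the 12 h rise of Tsc1 with Akti1/2, its 12 h difference from control, and its 12 h interaction.

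Put in the order of their group means, few steps between neighbouring groups were called. For Tsc1 the step from the top group, Akti1/2 12 h (7.71), to the next, Akti1/2 2 h (6.66), was 1.04 (limma adjusted p = 0.000719), and the order below it was Akti1/2 6 h, control 12 h, Akti1/2 0 h, control 2 h, control 6 h and control 0 h (5.80) with no step called. For Inpp5d the last step, from control 12 h (6.31) to Akti1/2 12 h (5.78), was called (0.53, limma adjusted p = 0.0423). No neighbouring groups were told apart for Pik3cd, Pik3r1, Pdpk1 and Tsc2. Of the 28 pairs of groups, 13 were called for Tsc1, 11 for Inpp5d, 10 for Pik3r1, 7 for Tsc2, 6 for Pik3cd and 5 for Pdpk1.

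Over the 16 arrays, which share their groups and chips, Pik3r1 and Inpp5d varied most alike among the 6 genes (Pearson r = 0.72), and Tsc1 ran against Inpp5d (r = -0.71) and Pik3r1 (r = -0.60). Outside the 8 genes, the tested genes with the profile most like each member above background on all arrays were Cops3 and Ppp1ca for Inpp5d (r = 0.95 and 0.928), Cul3 and Klhl25 for Pik3r1 (0.893 and 0.881), Capn10 and Kctd10 for Tsc2 (0.958 and 0.952), Wdr37 and Tex261 for Pdpk1 (0.898 and 0.864), and Tmem63a and Cchcr1 for Pik3cd (0.789 and 0.764). These correlations describe 8 groups of 2 arrays and carry no test.

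The J5 score, with which the study selected genes by a threshold set for each time, divides a gene's mean difference by the mean absolute difference of all genes on untransformed intensities, here after scaling arrays to a common 95th percentile. For the 8 genes it lay between -2.37 and 2.34 over the 10 comparisons of 2 groups, and between -3.42 and 2.07 with arrays scaled to the same mean.

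The sequences just before the start of transcription are shown for Tsc1, the gene with the largest difference between the arms, for Inpp5d, which fell in both arms, and for Pik3cd, whose window alone of these 3 holds one of the motifs searched. Each is the 250 bases before a start in RefSeq on GRCm38.p6, 5′ to 3′ in the direction of the gene, in lower case with a motif match in capitals. The positions are chr2:28640983-28641232 on the plus strand for Tsc1, chr1:87620062-87620311 on the plus strand for Inpp5d and chr4:149698709-149698958 on the minus strand for the most upstream of 3 starts of Pik3cd.
Tsc1: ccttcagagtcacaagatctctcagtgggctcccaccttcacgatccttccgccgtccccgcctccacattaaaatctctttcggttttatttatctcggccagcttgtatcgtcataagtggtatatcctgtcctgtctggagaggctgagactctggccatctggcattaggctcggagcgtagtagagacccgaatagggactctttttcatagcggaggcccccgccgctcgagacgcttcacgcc
Inpp5d: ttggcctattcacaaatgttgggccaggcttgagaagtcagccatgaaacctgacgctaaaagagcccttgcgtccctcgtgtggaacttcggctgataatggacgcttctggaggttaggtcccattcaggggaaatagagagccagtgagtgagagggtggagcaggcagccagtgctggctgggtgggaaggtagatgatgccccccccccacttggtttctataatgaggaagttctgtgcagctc
Pik3cd: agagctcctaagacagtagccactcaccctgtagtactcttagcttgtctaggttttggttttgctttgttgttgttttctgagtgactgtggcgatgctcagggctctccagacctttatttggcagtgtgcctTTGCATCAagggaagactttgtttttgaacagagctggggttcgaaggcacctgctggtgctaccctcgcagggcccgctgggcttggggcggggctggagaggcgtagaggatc
The motifs were GTAAACA (forkhead factors such as FOXO), TGATGNAA (the composite site of C/EBP and ATF factors) and CACGTG (the E-box), searched on both strands. All 8 genes had windows, 16 in total. The forkhead motif was in 1 of them, of Akt1, against 3.17% of all 32851 windows. The composite motif was in 2, of Pik3cd (capitals above) and Akt2, against 3.45%, and the E-box in 0 against 6.02%. A match describes letters in these windows and nothing about binding.

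Beyond the 8 genes, 102 other genes of the pathway were listed by role, of which 88 were on the array and 64 were tested. Before stimulation 0 of the 64 differed between the arms (limma). At 2 h 17 were higher and 9 lower with Akti1/2 (all tested genes 13.6% and 14.9%), at 6 h 23 and 3 (18.8% and 18.7%), and at 12 h 26 and 5 (24.2% and 24.8%). Together these were 40.6%, 40.6% and 48.4% of the 64, and their median difference was 0.20, 0.13 and 0.26, against -0.01, -0.01 and -0.02 for all tested genes. The list holds activators and inhibitors of the pathway alike, so the counts do not say in which direction the pathway moved. The interaction was called for 8 of the 64 as higher and 2 as lower at 2 h (all tested genes 4.25% and 4.16%), for 12 and 1 at 6 h (10.3% and 9.24%) and for 21 and 3 at 12 h (16.3% and 16.2%). In control cells 2 were higher and 4 lower than at 0 h after 2 h of stimulation, 6 and 14 after 6 h, and 4 and 13 after 12 h (all tested genes 4.42% and 5.86%, 12.1% and 15.4%, 12.7% and 15.1%). Leaving out Akti1/2 2 h replicate 1 brought the calls at 2 h between the arms from 26 to 15, leaving out control 6 h replicate 2 those at 6 h from 26 to 16, and leaving out control 0 h replicate 1, control 0 h replicate 2 or control 12 h replicate 1 the control counts of 6, 20 and 17 to 3, 12 and 7.

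**Figure D4:**
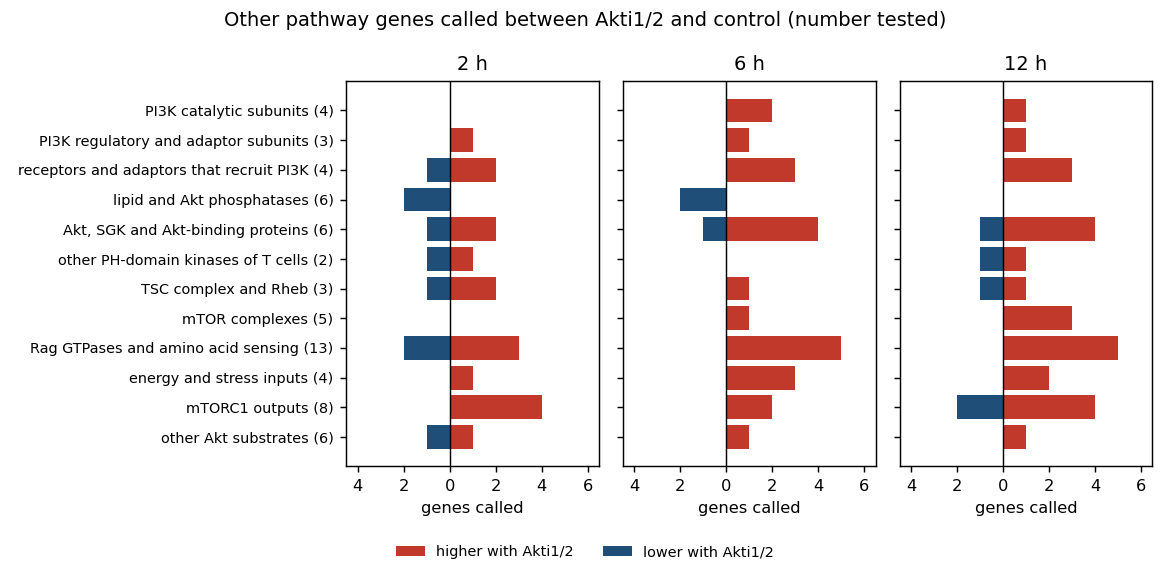
Number of other pathway genes called between Akti1/2 and control cells at 2, 6 and 12 h, by role, with the number tested in brackets; red bars to the right count genes higher with Akti1/2 and blue bars to the left genes lower. At 12 h 26 genes were higher and 5 lower, and the 6 phosphatases tested had calls in the lower direction only.

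Upstream, at the level of PI3K, the largest difference was that of Pik3ip1, an inhibitor of the PI3K catalytic subunit. It was higher with Akti1/2 by 1.76 ± 0.25 at 2 h (limma adjusted p = 0.000527), when control 2 h replicate 2 was not above background. At 6 and 12 h it was not above background on either control array. On the background-corrected scale it was at least 5.3-fold higher at 6 h and at least 9.1-fold at 12 h (fitted differences 2.55 and 3.81, limma adjusted p = 1.49e-05 and 3.29e-07). A bound sets the mean of the brighter group against the lowest signal above background on the dimmer arrays, and holds on that scale only. Without background correction the Pik3ip1 differences were smaller than these bounds, 1.18 and 1.91 on the log2 scale. Of the 4 catalytic subunits tested, 0, 2 and 1 were called at 2, 6 and 12 h, all higher (limma). These were 0%, 50% and 25%, against 28.4%, 37.5% and 49% of all tested genes. Pik3cg, activated mainly downstream of G-protein-coupled receptors, was higher at 6 h (0.61, limma adjusted p = 0.00985, lost without control 6 h replicate 2 or Akti1/2 6 h replicate 2, down to 0.47). Pik3c3, the class III enzyme of autophagy and endosomes, was higher at 6 h (0.54, limma adjusted p = 0.0153, lost without replicate 1 of either arm at 6 h, at 0.44 and 0.33) and at 12 h (0.58, limma adjusted p = 0.0082).

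Of 4 tested genes for receptors and adaptors that recruit PI3K, 2 were higher and 1 lower at 2 h, and 3 were higher at 6 and 12 h (75% called at each time, against 28.4%, 37.5% and 49% of all tested genes). The lower one at 2 h was Icos, a costimulatory receptor related to CD28 (-0.70, limma adjusted p = 0.0393). Icos and the genes Sgk3, Rragb, Sesn1, Eif4e and Eif4b below were named after their values were seen, to account for all genes called lower, and were not followed singly through the other analyses. Irs2, an adaptor of insulin and interleukin-4 receptors, fell in stimulated control cells by 1.52 from 0 to 12 h (limma adjusted p = 5.44e-05). With Akti1/2 it was first lower, at 8.75 and 8.81 at 2 h against 9.17 and 9.66 at 0 h. By 12 h it was 0.94 above 0 h in that arm (limma adjusted p = 0.000906), and the arms differed by 2.31 ± 0.17 (limma adjusted p = 8.15e-07). Cd28, the costimulatory receptor bound by the stimulating antibody, was higher by 0.96, 1.29 and 1.41 at 2, 6 and 12 h (limma adjusted p = 0.00115, 6.33e-05 and 1.45e-05). The adaptor Gab3 was higher by 0.67, 1.11 and 0.61 (limma adjusted p = 0.00274, 4.49e-05 and 0.00175), with control 12 h replicate 1 not above background. Of the 6 phosphatase genes that oppose PI3K or Akt, 2 were lower at 2 h, 2 at 6 h and 0 at 12 h, and 0 were higher (limma, 33.3% called at 2 and 6 h against 28.4% and 37.5% of all tested genes, and 0% at 12 h against 49%). Ppp2ca, the catalytic subunit of PP2A, was lower at 2 h (-0.67, limma adjusted p = 0.00162). Inppl1, which encodes SHIP2, was lower at 2 and 6 h (-0.55 each, limma adjusted p = 0.00738 and 0.00413, the former lost without control 2 h replicate 1 at -0.48). For Ppp2r5c, a targeting subunit of PP2A, the call at 6 h (-0.31, limma adjusted p = 0.0485) was kept in 4 of 23 other analyses and lost on leaving out all but 2 of the 16 arrays, the Akti1/2 2 h ones (-0.36 to -0.27, limma adjusted p up to 0.165).

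Of 6 tested genes for Akt, SGK kinases and Akt-binding proteins, 2 were higher and 1 lower at 2 h, and 4 were higher and 1 lower at 6 h and at 12 h (50%, 83.3% and 83.3% called, against 28.4%, 37.5% and 49% of all tested genes). The Akt-binding pseudokinase gene Trib3 had the largest fitted differences of the list, though Pik3ip1 was only bounded from below at 6 and 12 h. Trib3 stayed between 6.30 and 6.81 on average in the 4 control groups and rose to 9.75, 10.33 and 11.13 with Akti1/2 at 2, 6 and 12 h. These were differences of 3.45, 3.69 and 4.32 ± 0.13 from control (limma adjusted p = 1.72e-08, 2.47e-09 and 4.9e-10). Its relative Trib2 was higher by 1.14 at 12 h (limma adjusted p = 5.21e-05). Sgk1, a kinase related to Akt, fell by 2.34 in control cells at 6 h (limma adjusted p = 1.14e-06) and by 0.75 with Akti1/2 (limma adjusted p = 0.00541), and was 1.60 and 0.91 higher with the inhibitor at 6 and 12 h (limma adjusted p = 2.59e-05 and 0.000817). The lower gene at all 3 times was Sgk3, a relative of Sgk1, by -0.42 at 2 h (limma adjusted p = 0.0332). At 6 and 12 h it was not above background with Akti1/2 and, on the background-corrected scale, at least 1.4-fold lower (limma adjusted p = 0.00708 and 0.00125). Tec, a kinase recruited to the membrane by the same lipid, was lower with Akti1/2 at 2 h (-1.36, limma adjusted p = 0.000593; Akti1/2 2 h replicate 2 was not above background) and at 12 h (-0.66, limma adjusted p = 0.0156, lost without replicate 1 of either arm at 12 h, at -0.61 and -0.58).

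Of 3 tested genes for the TSC complex and Rheb, 2 were higher and 1 lower at 2 h. At 6 h 1 was higher, and at 12 h 1 was higher and 1 lower. These were 100%, 33.3% and 66.7%, against 28.4%, 37.5% and 49% of all tested genes. Tbc1d7, the small subunit of the TSC complex, was lower at 2 h (-0.41, limma adjusted p = 0.022) and at 12 h (-0.61 ± 0.12, limma adjusted p = 0.000925). The 2 h call was lost without control 2 h replicate 1 or 2 or Akti1/2 2 h replicate 2 (-0.43 to -0.30, limma adjusted p up to 0.159). Rheb was higher at 2 and 6 h (0.61 and 0.69, limma adjusted p = 0.0268 and 0.0102), calls lost without control 2 h replicate 1 (0.45) and without Akti1/2 6 h replicate 2 (0.39) among others. Its relative Rhebl1 was higher at 12 h (0.46, limma adjusted p = 0.00901, lost without Akti1/2 12 h replicate 1 at 0.40). Of 5 tested genes of the mTOR complexes, 0, 1 and 3 were higher at 2, 6 and 12 h and 0 lower (limma, 0%, 20% and 60% called, against 28.4%, 37.5% and 49% of all tested genes). The 3 at 12 h were Akt1s1, the Akt substrate that restrains mTORC1 (0.67, limma adjusted p = 0.00105), Mapkap1, a subunit of mTORC2 (0.55, limma adjusted p = 0.000376), and Gbl, now Mlst8, shared by both complexes (0.54, limma adjusted p = 0.00658).

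Of 13 tested genes for Rag GTPases and amino acid sensing, 3 were higher and 2 lower at 2 h, and 5 were higher and 0 lower at 6 h and again at 12 h (limma, 38.5% called at each time against 28.4%, 37.5% and 49% of all tested genes). The lower ones at 2 h were Rragb, a Rag GTPase (-0.40, limma adjusted p = 0.0311), and Sesn1, a relative of Sesn2 (-0.45, limma adjusted p = 0.0357). Flcn and Fnip1 encode partners that act on the Rag GTPases at the lysosome. Flcn was higher by 0.56 and 1.77 at 6 and 12 h (limma adjusted p = 0.00279 and 3.29e-07) and Fnip1 by 1.04, 1.30 and 1.40 at 2, 6 and 12 h (limma adjusted p = 0.000622, 4.93e-05 and 1.3e-05). Sesn2, a leucine sensor and stress-induced inhibitor of mTORC1, was higher by 1.42 at 2 h (limma adjusted p = 0.000795). At 6 and 12 h it was not above background in control cells and, on the background-corrected scale, at least 1.9-fold and 2.2-fold higher (limma adjusted p = 0.000351 and 2.81e-05). Without background correction these 2 differences were smaller than the bounds, 0.46 and 0.61 on the log2 scale. Of 4 tested genes for energy and stress inputs, 1, 3 and 2 were called at 2, 6 and 12 h, all higher. These were 25%, 75% and 50%, against 28.4%, 37.5% and 49% of all tested genes. Ddit4, a stress-induced inhibitor of mTORC1, rose in both arms and was 1.63 ± 0.18 higher with Akti1/2 at 12 h (limma adjusted p = 1.1e-05). The AMPK subunit genes Prkag1 and Prkab1 were higher at 12 h (0.72, limma adjusted p = 0.000233) and at 6 h (0.57, limma adjusted p = 0.00424).

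**Figure D5:**
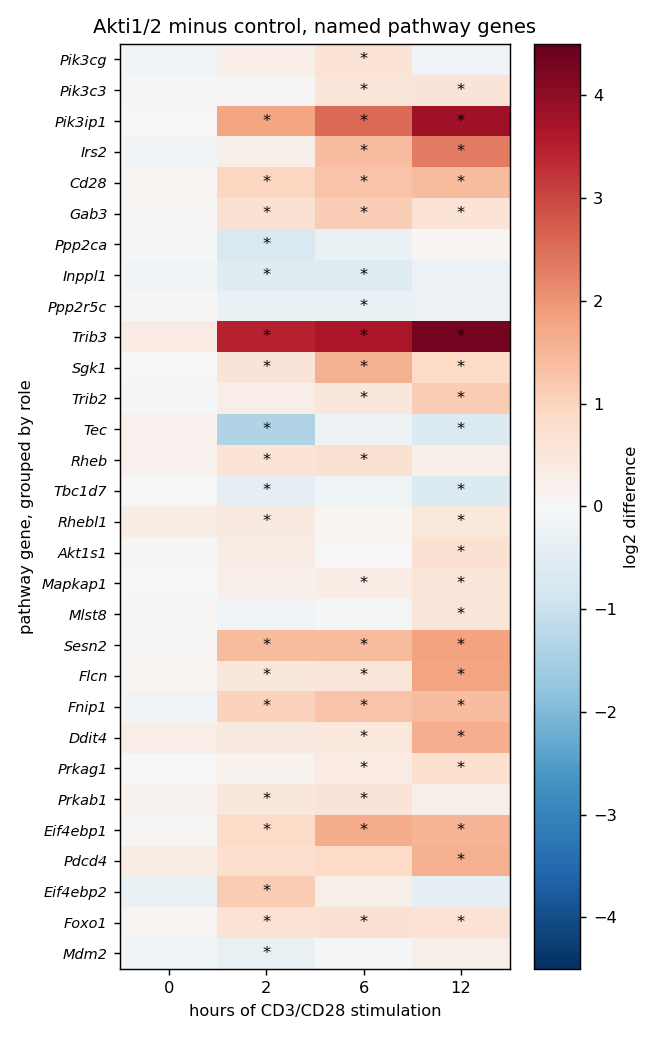
Log2 difference between Akti1/2-treated and control cells (colour) for 30 named pathway genes in rows, ordered by role, at 0, 2, 6 and 12 h in columns; asterisks mark called differences. Trib3 (3.45, 3.69 and 4.32) and Pik3ip1 (fitted 1.76, 2.55 and 3.81) are the darkest rows, and no gene was called at 0 h.

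Downstream of mTORC1, 4 of 8 tested genes were higher at 2 h, 2 at 6 h, and 4 at 12 h with 2 lower (50%, 25% and 75% called, against 28.4%, 37.5% and 49% of all tested genes). The lower ones at 12 h were the translation initiation factor genes Eif4e (-0.73, limma adjusted p = 0.0457) and Eif4b (-0.48, limma adjusted p = 0.0232). Eif4ebp1, the translation repressor that mTORC1 inactivates, was higher by 0.87, 1.68 and 1.52 ± 0.12 at 2, 6 and 12 h (limma adjusted p = 0.000327, 1.19e-06 and 8.96e-07). Its relative Eif4ebp2 was higher at 2 h only (1.14, limma adjusted p = 0.0017; -0.45 at 12 h, not called, limma adjusted p = 0.0843). Pdcd4, another translation repressor, was higher at 12 h (1.59, limma adjusted p = 0.00495, lost at 1.11 without control 12 h replicate 1, on which it was not above background). Among 6 other Akt substrates, 2 were called at 2 h and 1 each at 6 and 12 h. These were 33.3%, 16.7% and 16.7%, against 28.4%, 37.5% and 49% of all tested genes. Foxo1 was higher by 0.64, 0.69 and 0.65 at 2, 6 and 12 h (limma adjusted p = 0.00991, 0.00391 and 0.00415). Its 6 h call held in all 23 other analyses. The 2 and 12 h calls were lost without Akti1/2 replicate 1 or control replicate 2 of the same time (0.51 and 0.46 without the former). Mdm2, the ubiquitin ligase of p53, was lower at 2 h (-0.35, limma adjusted p = 0.0361), a call lost without any 1 of the 4 arrays compared or either control 0 h array (-0.38 to -0.33, limma adjusted p up to 0.124). Of the 62 calls between the arms for these 30 genes, 40 held in every other analysis that tested the gene, but the genes were named for large differences of the same sign on both chips, so this count describes them and is no sign of stability. Calls among the 62 not given singly above were of Sgk1, Rhebl1, Flcn and Prkab1 at 2 h. At 6 h they were of Irs2, Trib2, Mapkap1, Ddit4 and Prkag1. All were higher with Akti1/2. Without background correction these differences were 0.31, 0.20, 0.41 and 0.39 at 2 h and 1.15, 0.21, 0.30, 0.48 and 0.31 at 6 h. The fit of only the groups compared lost the calls of Rheb, Tbc1d7, Mdm2, Sgk1, Rhebl1, Flcn and Prkab1 at 2 h (limma adjusted p = 0.0525 to 0.102). At 6 h it lost those of Rheb, Pik3c3, Inppl1, Ppp2r5c, Trib2, Mapkap1, Ddit4 and Prkag1 (limma adjusted p = 0.0576 to 0.158). Without background correction 61 of the 62 were still called, and 24 were smaller by over 1.5 times, all those of Gab3 (0.29, 0.44 and 0.21 at 2, 6 and 12 h), Sesn2 (0.71, 0.46 and 0.61), Pik3ip1 (0.62, 1.18 and 1.91) and Sgk1 (0.31, 0.72 and 0.46). The others were Trib3 at 2 h (2.24), Trib2 at 6 and 12 h (0.21 and 0.56), Foxo1 at 6 h (0.45), and Pdcd4 and Akt1s1 at 12 h (0.57 and 0.28). At 2 and 12 h they were Tec (-0.46 and -0.26), Tbc1d7 (-0.23 and -0.35) and Rhebl1 (0.20 and 0.28).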

How the data were processed

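RNA of 16 D10 cell samples was hybridised to Illumina MouseRef-8 bead arrays. The authors deposited mean bead intensity per gene and array on a linear scale, summarised by GSGX version 1.5.4, with no normalization and no background subtraction; the control beads used below stood in the same table, and a separate table of control beads was not used. The genome build is not given in the sources used here. Intensities were corrected with limma 3.58.1 in R 4.3.3 (neqc: normexp on 798 negative controls, offset 16, quantile normalization, log2). All 8 groups entered 1 linear model (lmFit, eBayes, 8 residual degrees of freedom), with Benjamini-Hochberg adjustment over 7395 genes above background (detection p under 0.01) on at least 2 arrays. The script was tested on simulated data with planted changes. The number of arrays limits the precision.

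Groups came from the sample labels. The comparisons were each stimulated time against 0 h within an arm, Akti1/2 against control at each time, and the interaction. The 8 genes and all gene lists were chosen with earlier results of these data known. Of the pathway list, up to 3 genes per role were named, those with the largest absolute difference between the arms at 2, 6 or 12 h among those called there with the same sign on both chips. Of these, 1 is counted with its role but not reported here. For each member above background on all arrays the 2 most correlated genes were named. Of the markers, the T cell and Th2 entries of highest median intensity and those at background were named. The alternatives dropped the background correction, replaced quantile normalization by scaling arrays to 1 mean, dropped or tightened the filter (above background on all 16 arrays), added the replicate number or the chip as a block, restricted the fit to the compared groups, or left out each array in turn. Promoter windows came from RefSeq tables.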

Additional observations from a re-analysis of the deposited data

Results flagged for a closer look

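Of the 6 tested genes, 2 had an effect of Akti1/2 at 12 h that differed from its effect at 0 h by a test of the difference itself, a share (33.3%) near the 32.5% called among all tested genes. For Tsc1 the 12 h effect exceeded the 0 h effect by 1.03 on the log2 scale (limma adjusted p = 0.0113; 1.68 on one chip and 0.38 on the other). For Pdpk1 it exceeded it by 0.59 (limma adjusted p = 0.0433; 0.89 and 0.29), and without Akti1/2 0 h replicate 1 by 0.33 (limma adjusted p = 0.172). Groups of 2 arrays are too small to look for single outlying samples.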

How the results depend on the processing

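With 2 arrays a group, most single calls rested on few arrays: of the 24 differences called for the 8 genes, 5 remained called in all alternatives that tested them and none changed sign. The values that changed sign were all uncalled. With arrays scaled to the same mean these were -0.08 and -0.10 for Pdpk1 in control cells at 2 and 6 h, -0.10 for Tsc1 in control cells at 6 h, -0.01 for Pik3r1 between the arms at 0 h and 0.01 for Inpp5d between the arms at 6 h. On leaving out 1 array, control changes ran from -0.02 to 0.06 for Pdpk1 at 2 h, -0.01 to 0.03 at 6 h, -0.17 to 0.26 for Tsc1 at 6 h and -0.27 to 0.04 for Tsc2 at 6 h. Changes with Akti1/2 ran from -0.23 to 0.02 and -0.02 to 0.17 for Pik3cd at 6 and 12 h and -0.03 to 0.44 for Tsc2 at 6 h. Differences between the arms ran at 0 h from -0.29 to 0.09 for Pik3cd, -0.06 to 0.22 for Pik3r1 and -0.47 to 0.05 for Pdpk1, and at 6 h from -0.06 to 0.20 for Pik3cd, -0.45 to 0.15 for Inpp5d and -0.05 to 0.42 for Tsc2, and the Pik3cd interaction at 6 h from -0.02 to 0.36. On leaving out 1 array the number of the 6 genes called ran from 0 to 1, 0 to 1 and 0 to 4 in control cells at 2, 6 and 12 h, 0 to 5 and 1 to 3 with Akti1/2 at 2 and 6 h, 0 to 3, 0 to 2 and 1 to 5 between the arms, and 0 to 1, 0 to 1 and 1 to 4 for the interaction. For the other pathway genes it ran from 3 to 10, 12 to 21 and 7 to 19 in control cells, 15 to 26 and 20 to 32 with Akti1/2 at 6 and 12 h, 15 to 28 and 16 to 26 between the arms at 2 and 6 h, and 4 to 11 for the interaction at 2 h. For all genes it ran from 261 to 988, 1201 to 2206 and 1285 to 2254 in control cells, 1804 to 3061 with Akti1/2 at 2 h, 1162 to 2370 between the arms at 2 h, and 193 to 845 and 923 to 1505 for the interaction at 2 and 6 h. Called neighbouring steps ran from 0 to 1 for Pik3r1, Inpp5d and Tsc2. Scaling to the same mean gave 1 of the 6 genes with Akti1/2 at 6 h, 2 between the arms at 6 h, interactions of 1, 1 and 4, steps of 0 for Inpp5d and 1 for Tsc2, and 10 pathway genes in control cells at 2 h. It moved the median interaction of all genes at 6 h to 0.119. The share of calls that were higher went from 43% to 25.9% and 44% to 30.6% in control cells at 2 and 6 h, from 50.1% to 60.8% between the arms at 6 h, and from 50.5%, 52.7% and 50.2% to 64.7%, 71.9% and 60.6% for the interaction. Quantile normalization without background correction gave 2 of the 6 genes between the arms at 6 h, 1 interaction at 6 h, steps of 0 for Inpp5d and 1 for Tsc2, 11 pathway genes in control cells at 2 h and 7 genes in all between the arms at 0 h. With no filter, 2 and 1 of the 6 genes were called with Akti1/2 at 2 and 6 h, 1 and 1 between the arms at 2 and 12 h and 1 interaction at 12 h, with 0 steps for Inpp5d and 13 pathway genes in control cells at 6 h. Testing only genes above background on all 16 arrays gave 1 interaction each at 2 and 6 h, 1 step for Tsc2 and 11 pathway genes in control cells at 2 h. The fit of only the groups compared gave 0, 2 and 0 of the 6 genes in control cells at 2 h and with Akti1/2 at 2 and 6 h, 3, 14, 16 and 16 pathway genes in control cells at 2 h, with Akti1/2 at 6 h and between the arms at 2 and 6 h, and 433, 1479, 2, 1121 and 1652 genes in all in control cells at 2 h, with Akti1/2 at 6 h and between the arms at 0, 2 and 6 h. The labels do not say whether replicate numbers pair the samples. Of 28 pairs of groups, 7 had same-numbered arrays whose deviations correlated above 0.1 (r -0.296 to 0.264), which cannot settle it. Replicate number and chip coincided in every group except control 12 h, so the replicate and chip blocks were nearly the same. With the replicate block the interaction was called for 1 of the 6 genes each at 2 and 12 h, and with the chip as a block for 1 at 2 h. The replicate block also called the fall of Pik3r1 with Akti1/2 at 6 h (limma adjusted p = 0.0328) and the Pik3cd interaction at 2 h (0.0382) and lost the Pdpk1 difference (0.0558) and interaction (0.052) at 12 h. The causes of these shifts were not tested.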
